A study of Rattus norvegicus with 36 samples.

Results

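Macrophages are represented here by 9 rat genes, of 11773 genes that passed a filter on low values: the surface receptors Csf1r, Fcgr3a and Cd163, the adaptor Tyrobp, the complement genes C1qa and C1qb, the lysosomal genes Cd68 and Lyz2, and Gpnmb. Each was chosen by its symbol, as the probe set whose annotation gives that symbol and no other. There was exactly 1 probe set for each of the 9 genes, and all 9 passed the filter, 8 of them on 36 of 36 arrays and Cd163 on 23 of 36. Their levels were measured on 36 oligonucleotide arrays, 33 for mammary cancers and 3 for normal gland, in 10 groups. All samples came from female Sprague-Dawley rats that arrived at 5 weeks of age, and treatment began at 7 weeks. The cancers comprised 3 spontaneous ones of untreated rats and 4 that followed a single whole-body dose of 1 Gy of gamma rays, all H-ras nonmutated. Another 9 followed methylnitrosourea (MNU, an alkylating carcinogen, 40 mg/kg into the peritoneum), 5 H-ras mutated and 4 nonmutated, and 9 followed radiation plus MNU, again 5 mutated and 4 nonmutated. PhIP, a mutagen of cooked meat (40 mg/kg/day by gavage on 5 days a week for 2 weeks), preceded 3 nonmutated and 1 mutated cancer, and radiation plus PhIP preceded 4 nonmutated ones. The chemicals were given 3 days after radiation, and per the labels every rat was moved at 9 weeks to a diet containing 23.5% corn oil. The 3 normal tissues were from untreated rats, with no age given. Whether any 2 cancers shared a rat is not stated in the labels, so p-values measure the spread between these samples, which may in part be technical.

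Macrophages depend on signalling through the receptor Csf1r and clear particles, dying cells and lipid through receptors, complement and lysosomes. In mammary tissue they lie around ducts and in the fat pad, and in tumours they are a common part of the stroma. C1q, whose A and B chains are encoded by C1qa and C1qb, starts the classical complement pathway and in tissues is made mainly by macrophages. Gpnmb is a membrane glycoprotein of lysosomes and related vesicles, known from macrophages loaded with lipid, from osteoclasts and from pigment cells, and its transcription is known to depend on the MiT/TFE family of transcription factors. The myeloid factor PU.1 is known to act on many macrophage genes.

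The promoters of Gpnmb, Cd68, C1qa and C1qb are shown because Gpnmb was the member that varied most between groups of cancers, while the C1q genes and Cd68 differed in how they compared with normal tissue. Each sequence is the 250 bases before the RefSeq start of the gene in build GRCr8, 5′ to 3′ on the gene's own strand. Capitals mark matches to GAGGAAG, a core of PU.1 sites, and to CATGTG, an E-box that MiT/TFE factors can bind, each searched on both strands, so that CACATG is the E-box read on the other strand. Gpnmb lies on the plus strand at chr4:79340878-79341127, and Cd68 on the minus strand at chr10:54882442-54882691. C1qa at chr5:154419934-154420183 and C1qb at chr5:154407828-154408077 are both on the minus strand of chromosome 5.
Gpnmb: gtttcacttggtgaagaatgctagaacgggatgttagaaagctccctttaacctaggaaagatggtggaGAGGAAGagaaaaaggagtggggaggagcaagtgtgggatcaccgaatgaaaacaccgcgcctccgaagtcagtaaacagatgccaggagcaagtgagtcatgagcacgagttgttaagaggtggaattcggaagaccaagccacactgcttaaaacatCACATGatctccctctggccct
Cd68: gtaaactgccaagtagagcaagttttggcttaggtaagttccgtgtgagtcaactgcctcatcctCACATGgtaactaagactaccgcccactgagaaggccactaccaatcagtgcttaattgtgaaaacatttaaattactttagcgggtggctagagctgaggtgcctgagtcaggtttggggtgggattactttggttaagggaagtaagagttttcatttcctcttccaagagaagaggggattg
C1qa: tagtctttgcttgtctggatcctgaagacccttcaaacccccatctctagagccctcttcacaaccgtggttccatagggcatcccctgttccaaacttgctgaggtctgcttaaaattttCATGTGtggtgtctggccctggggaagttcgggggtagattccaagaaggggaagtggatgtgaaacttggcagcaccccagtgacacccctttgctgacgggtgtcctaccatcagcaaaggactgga
C1qb: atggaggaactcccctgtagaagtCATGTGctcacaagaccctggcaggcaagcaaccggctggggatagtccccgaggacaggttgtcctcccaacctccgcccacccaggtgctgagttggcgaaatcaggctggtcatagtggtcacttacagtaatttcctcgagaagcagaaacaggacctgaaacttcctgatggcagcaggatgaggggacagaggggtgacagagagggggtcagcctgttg

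In Gpnmb the PU.1 core began at position −181 and the E-box at −22, counted from the start of the gene. The E-box stood at −185 in Cd68, at −129 in C1qa and at −226 in C1qb. The search covered these bases and the 50 after the start, in the 8 of 9 members that the RefSeq promoter table holds. The PU.1 core was found in 4 of the 8 (Gpnmb, Csf1r, Fcgr3a and, at position 4 after the start, Cd68) and in 12.4% of 33469 rat promoters. The E-box CATGTG was found in 5 of the 8 (Gpnmb, Cd68, C1qa, C1qb and Fcgr3a) and in 14% of all promoters. The other E-box searched, CACGTG, was found in 0 of the 8 and in 6.42% of all. None of these matches overlapped another, and a match describes the letters only.

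Across the series, array medians lay between 7.67 and 8.05 on the log2 scale, and arrays of the same group correlated at 0.885 or more. Levels are given as log2(intensity + 42.8), on which changes of dim genes are understated. MNU nonmutated 4 stood apart in RNA quality, with a hexokinase signal higher at the 3′ than at the 5′ end by 3.61 on the log2 scale, against 0.73 to 2.22 in the other cancers. Markers of other cells were present too. Over 9 adipocyte markers the mean level was 10.60 to 11.33 in the normal tissues and 7.16 to 8.29 in the cancers. Over 10 luminal epithelial markers it was 11.83 to 12.29 in normal tissue and 11.81 to 12.57 in the cancers, so the samples labelled mammary carried an epithelial signal throughout.

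**Figure D1:**
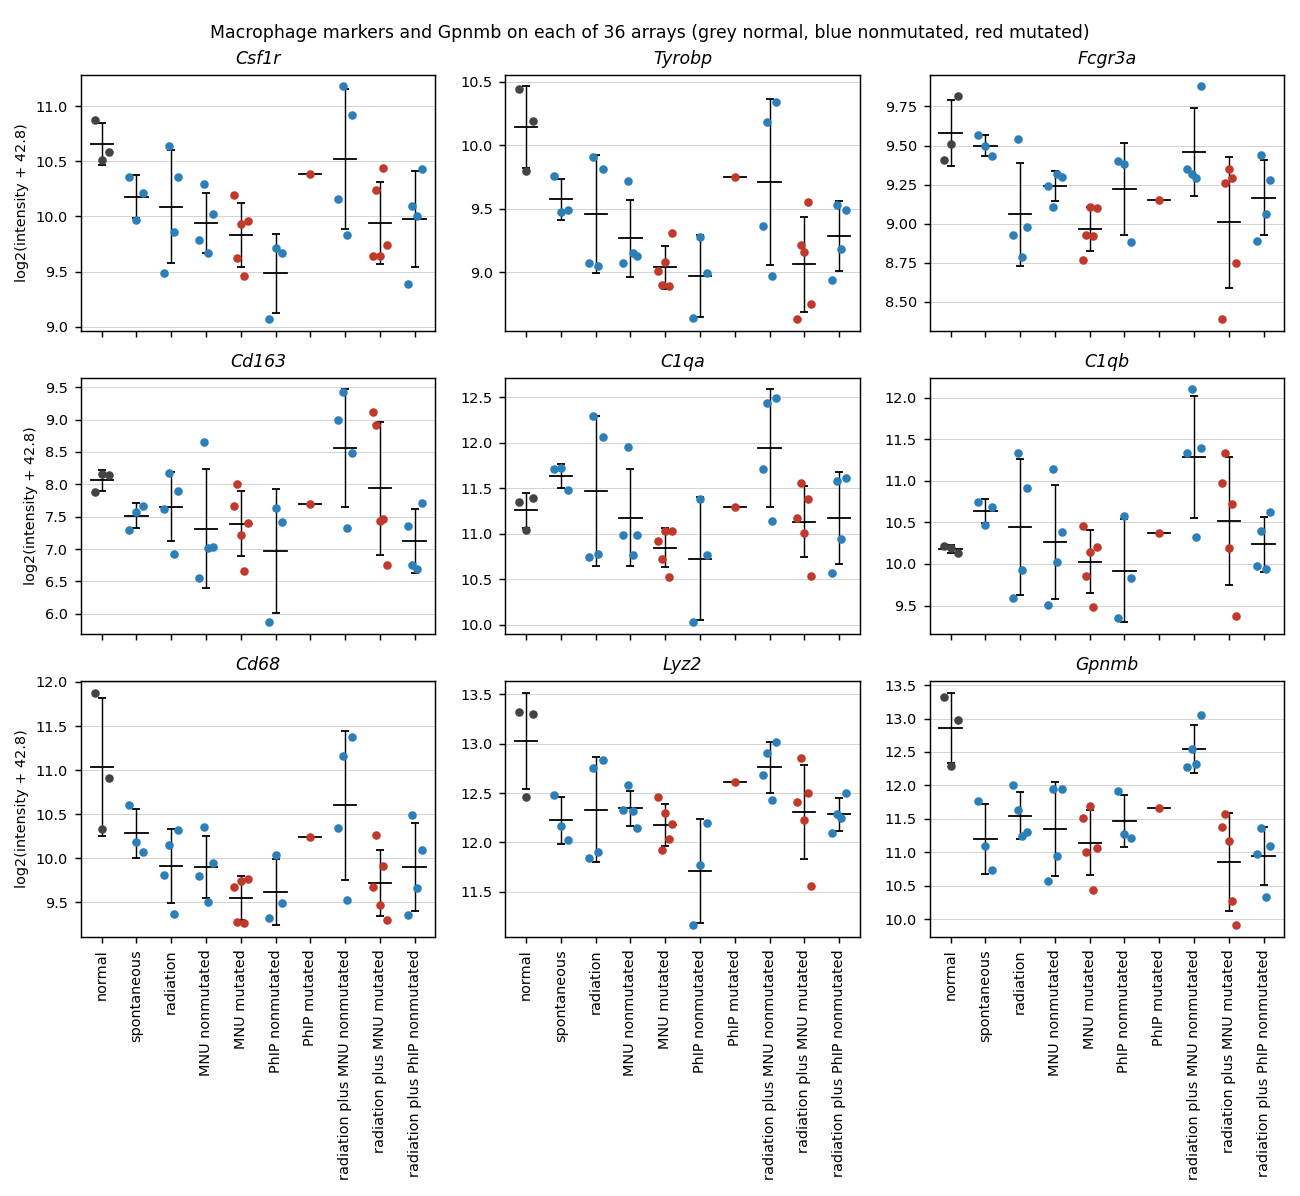
Level of each of the 9 genes, as log2(intensity + 42.8), on each of the 36 arrays, by group; points are arrays, lines are group means and bars are SD, with normal tissue in grey, nonmutated cancers in blue and mutated cancers in red. Gpnmb lay between 12.27 and 13.05 in the 4 radiation plus MNU nonmutated cancers and at 12.00 or less in every other cancer.

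The first comparison set the 33 cancers beside the 3 normal tissues. Of the 9 genes, 6 were lower in the cancers (limma adjusted p under 0.05) and 0 were higher, where 16.3% of all genes were lower and 18% higher. Gpnmb, Cd68, Tyrobp, Lyz2, Csf1r and Fcgr3a fell, whereas C1qa, C1qb and Cd163 did not pass. The median difference over the 9 was −0.64, and over all genes it was 0.02. Since these are whole tissues, fewer macrophages and less RNA of a gene per macrophage cannot be told apart. The adipocyte markers fell at the same time, 8 of 9 of them, with a median difference of −3.76, and their part in the results was not tested.

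Gpnmb had the largest fall of the 9. Its level was 13.32, 12.29 and 12.98 in normal tissues 1, 2 and 3, and in the cancers it ran from 9.91 through a median of 11.31 to 13.05. Of the 33 cancers, 30 lay below every normal tissue and 3 within the normal range. The cancers averaged 11.37 ± 0.68 (SD, n = 33) and the normal tissues 12.86 ± 0.53 (SD, n = 3), a difference of −1.49 ± 0.31 (SE; limma adjusted p = 0.000411).

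The lysosomal genes fell as well. Cd68, a heavily glycosylated lysosomal membrane protein used as a general macrophage marker, measured 11.88, 10.33 and 10.91 in the normal tissues and 9.27, 9.81 and 11.38 as the lowest, median and highest cancer. No cancer exceeded the highest normal tissue, and 27 of 33 lay below all 3. Its difference was −1.12 ± 0.28 (limma adjusted p = 0.00309). Lyz2, the lysozyme of myeloid cells, measured 13.32, 12.46 and 13.30 in normal tissue and 11.16 to 13.02 in the cancers, with a median of 12.30. It fell by 0.73 ± 0.21 (limma adjusted p = 0.00923), with 22 cancers below every normal tissue and 11 within their range.

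Of the receptors and their adaptor, Tyrobp showed the largest fall. Tyrobp, also called DAP12, carries the signals of several myeloid receptors that have no signalling tail of their own. It measured 10.44, 9.80 and 10.19 in normal tissue and 8.63 to 10.34 in the cancers (median 9.18), a difference of −0.85 ± 0.22 (limma adjusted p = 0.00336), and 29 cancers lay below all normal tissues. Csf1r, the receptor for the growth factors Csf1 and Il34, measured 10.87, 10.51 and 10.58 against 9.07 to 11.18 (median 9.97). Its fall of 0.64 ± 0.23 (limma adjusted p = 0.031) was shared by 30 cancers, but 2 cancers exceeded every normal tissue. Fcgr3a, a receptor for the constant part of IgG that RefSeq also lists as Fcgr4, measured 9.41, 9.51 and 9.82 against 8.39 to 9.88 (median 9.26), a small difference of −0.40 ± 0.16 (limma adjusted p = 0.0489). Cd163, the scavenger receptor for haemoglobin bound to haptoglobin, measured 7.88, 8.16 and 8.15 against 5.87 to 9.43 (median 7.46). It did not pass (−0.48 ± 0.42, limma adjusted p = 0.395), and its cancers lay both below the normal range (24) and above it (7).

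The C1q genes, like Cd163, did not pass. C1qa measured 11.35, 11.04 and 11.39 in normal tissue and 10.03, 11.14 and 12.49 as the lowest, median and highest cancer. Its means were 11.26 ± 0.19 (SD, n = 3) and 11.25 ± 0.59 (SD, n = 33), with a 95% interval of the difference from −0.60 to 0.60 (limma adjusted p = 0.995). C1qb measured 10.22, 10.19 and 10.13 in normal tissue, a narrow range, and 9.35 to 12.10 in the cancers (median 10.39). The difference for C1qb was 0.23 ± 0.34 (interval −0.46 to 0.93, limma adjusted p = 0.627), with 19 cancers above and 11 below every normal tissue.

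These calls rested on few normal tissues. Without normal tissue 1 only Gpnmb and Tyrobp of the 9 passed, the difference of Cd68 was −0.70 (limma adjusted p = 0.102), and Csf1r, Fcgr3a and Lyz2 were lost too. Without normal tissue 3, Csf1r, Fcgr3a and Lyz2 were lost, and without normal tissue 2, Csf1r and Fcgr3a. Fcgr3a was also lost with log2(intensity + 1), with no filter, with array weights and without any 1 of several cancers. Another rule for choosing probe sets left the value of Fcgr3a, which has only 1, at −0.40. Through the other genes it moved the limma adjusted p of Fcgr3a to 0.052. Lyz2 was lost with quantile normalization (−0.51, limma adjusted p = 0.0689).

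**Figure D2:**
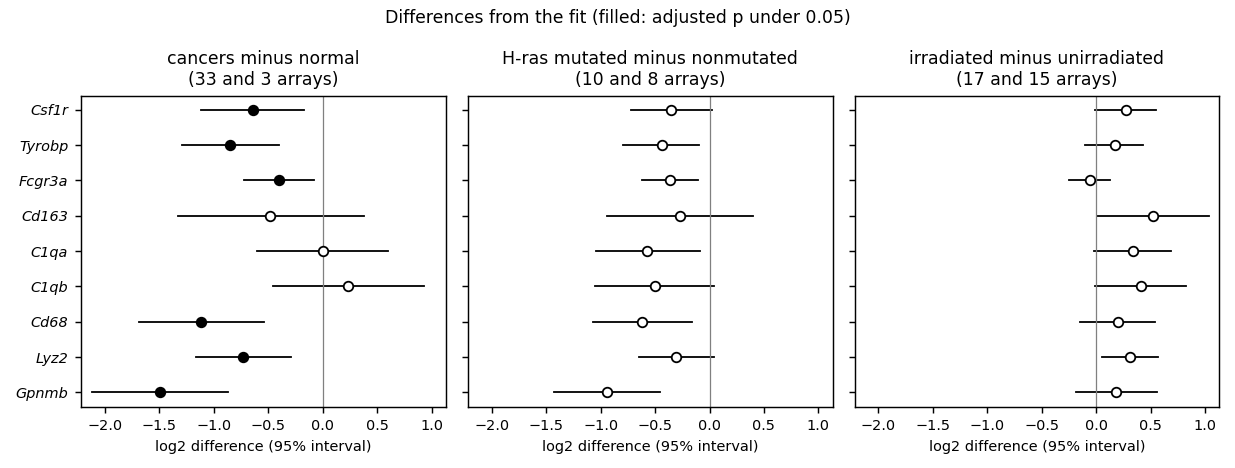
Log2 differences of the 9 genes with 95% intervals from the fit, for the comparisons named above each panel; filled points passed an adjusted p under 0.05. The fall of Gpnmb in cancers against normal tissue, −1.49, was the largest of the 9, and no gene passed in the comparisons between cancers.

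Within each array the C1q genes stood higher relative to Cd68 and Tyrobp in the cancers than in normal tissue. This was noticed after the values were seen, so it is given with no test. The log2 difference C1qa minus Cd68 was −0.53, 0.71 and 0.47 in normal tissues 1, 2 and 3, and 0.71 to 2.15 in the cancers, with a median of 1.29. All 33 cancers lay above all 3 normal tissues, the lowest of them level with normal tissue 2 at the precision given. The mean was 1.33 ± 0.26 (SD, n = 33) in cancers and 0.22 ± 0.66 (SD, n = 3) in normal tissue. For C1qb minus Cd68 the normal tissues had −1.66, −0.14 and −0.78 and the cancers −0.28 to 1.30, and 31 of 33 cancers lay above all normal tissues. Set against Tyrobp, C1qa and C1qb were both above every normal tissue in 33 of 33 cancers. The margins were narrow, with 1.39 as the lowest cancer and 1.24 as the highest normal tissue for C1qa. For C1qb these were 0.45 and 0.40. How many other pairs of genes separate cancers from these 3 normal tissues was not counted. A difference within an array shows that genes changed unequally, and not which of them stayed level.

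**Figure D3:**
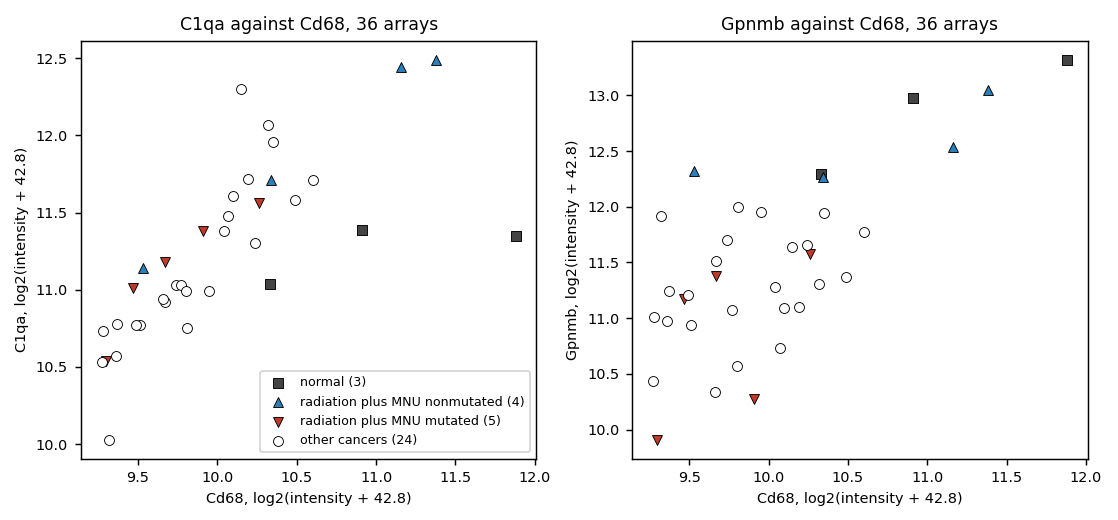
Levels of C1qa and of Gpnmb against Cd68 on the 36 arrays, all as log2(intensity + 42.8). Normal tissue is grey, radiation plus MNU nonmutated cancers are blue and radiation plus MNU mutated cancers red. All other cancers, mutated or not, are white. For C1qa all 33 cancers lie at a higher C1qa minus Cd68 than the 3 normal tissues, and for Gpnmb the 4 radiation plus MNU nonmutated cancers stand at 12.27 to 13.05.

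Each of the 8 cancer groups with at least 3 arrays was also set beside the normal tissues, which all 8 comparisons share. Over 9 genes in 8 groups 27 values passed, and all 27 were lower. By group the lower genes were 2 of 9 in spontaneous cancers (10.5% of all genes), 2 after radiation (10.3%), 3 in MNU nonmutated (10.7%), 6 in MNU mutated (13.9%) and 5 in PhIP nonmutated cancers (11.3%). They were 4 after radiation plus PhIP (11.3%), 5 in radiation plus MNU mutated (12.8%) and 0 in radiation plus MNU nonmutated cancers (8.26%). Gpnmb was lower in 7 of the 8 groups, from −1.31 ± 0.39 after radiation (limma adjusted p = 0.0147) to −2.00 ± 0.37 in radiation plus MNU mutated cancers (0.000222). In radiation plus MNU nonmutated cancers it did not pass (−0.32 ± 0.39, 0.622). In that group C1qb had a value of 1.10 ± 0.43 (0.0812) and C1qa one of 0.69 ± 0.37 (0.219), neither past the threshold. The count of 27 dropped to 13 without normal tissue 1 and to 17 without normal tissue 3.

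The H-ras comparison set 10 mutated cancers beside 8 nonmutated ones, as the mean of the differences after MNU and after radiation plus MNU. None of the 9 genes passed, and 0% of all genes did (0 of 11773 with limma, smallest adjusted p 0.0991, 886 genes at an unadjusted p under 0.05). All 9 values were below 0, as were the values of 49% of all genes, and the median was −0.44 over the 9 and 0.00 over all genes. At an unadjusted p under 0.05, 5 of the 9 were lower in mutated cancers, against 3.63% of all genes. The same direction for most of these markers was already known when the genes were chosen, so the counts are a description. Luminal epithelial markers were mostly on the other side, 8 of 10 above 0 with a median of 0.21, and 10 of 10 fibroblast markers were below 0 with a median of −0.42. The part of the cell mixture in these values was not tested.

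Gpnmb had the largest difference of the 9. In the mutated cancers its level was 9.91, 11.12 and 11.70 as the lowest, median and highest, and in the nonmutated ones 10.57, 12.11 and 13.05. All 10 mutated cancers lay below the median of the nonmutated ones, and 3 lay below every one of them. The difference was −0.94 ± 0.24 (interval −1.43 to −0.45, unadjusted p = 0.000489, limma adjusted p = 0.228), the 24th smallest p of all genes. The other values with an unadjusted p under 0.05 were −0.62 ± 0.22 for Cd68, −0.57 ± 0.23 for C1qa, −0.44 ± 0.17 for Tyrobp and −0.36 ± 0.12 for Fcgr3a. For C1qb (−0.50 ± 0.27), Csf1r (−0.35 ± 0.18), Lyz2 (−0.31 ± 0.17) and Cd163 (−0.27 ± 0.33) the 95% interval included 0.

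The 2 backgrounds that make up this comparison were also fitted separately for Gpnmb. After MNU alone, mutated cancers 1 to 5 measured 11.51, 11.01, 11.70, 10.44 and 11.07, and nonmutated cancers 1 to 4 measured 10.57, 11.94, 10.94 and 11.95. These ranges overlapped, and the difference was −0.20 ± 0.34 (interval −0.90 to 0.49, unadjusted p = 0.554). After radiation plus MNU, the mutated cancers measured 11.38, 11.58, 11.17, 10.27 and 9.91 and the nonmutated ones 12.27, 12.54, 12.32 and 13.05. Here all 5 mutated cancers lay below all 4 nonmutated ones, which 1 of the 9 members and 0.569% of all genes (67) did. The difference of −1.68 ± 0.34 (interval −2.38 to −0.99) had the smallest p of all genes in that background (unadjusted p = 2.88e-05, limma adjusted p = 0.209). The test of the change between backgrounds gave −1.48 ± 0.48 (unadjusted p = 0.00451, limma adjusted p = 1), so it did not pass over all genes. Setting the array with the lowest RNA quality, MNU nonmutated 4, aside moved the value after MNU alone to 0.00, and it was −0.05 with the hexokinase ratio as a covariate.

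For the other 8 genes the values after radiation plus MNU were also the lower ones, but the change between backgrounds had an unadjusted p of 0.205 to 0.475. After MNU alone their differences ran from −0.36 for Cd68 to 0.08 for Cd163, and 0 of the 9 members were lower at an unadjusted p under 0.05 (2.99% of all genes). After radiation plus MNU all 9 values were below 0, from −0.45 for Lyz2 and Fcgr3a through −0.88 for Cd68 to −1.68 for Gpnmb, and 6 of 9 had an unadjusted p under 0.05 (2.54% of all genes). The nonmutated cancers of that background were not uniform. Replicates 2 and 4 were high, with Cd68 at 11.16 and 11.38 and C1qa at 12.44 and 12.49, whereas replicate 3 had Cd68 at 9.53 and C1qa at 11.14, inside the range of the mutated cancers. For Gpnmb replicate 3 stood at 12.32, above all 5 mutated cancers.

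Radiation was tested as the equally weighted mean of 4 differences, with 17 irradiated and 15 unirradiated cancers: after radiation against spontaneous, and after the combination against the chemical for MNU mutated, MNU nonmutated and PhIP nonmutated cancers. None of the 9 genes passed, and 0% of all genes did (0 of 11773 with limma, smallest adjusted p 0.122, 1166 genes at an unadjusted p under 0.05). At an unadjusted p under 0.05, 2 of 9 were higher in irradiated cancers (3.99% of all genes). These were Lyz2 with 0.31 ± 0.13 (unadjusted p = 0.0223, limma adjusted p = 0.448) and Cd163 with 0.52 ± 0.25 (unadjusted p = 0.045, limma adjusted p = 0.501). C1qb (0.41 ± 0.20), C1qa (0.34 ± 0.18) and Csf1r (0.27 ± 0.14) had intervals that just included 0. Cd68 (0.20 ± 0.17), Gpnmb (0.18 ± 0.18), Tyrobp (0.17 ± 0.13) and Fcgr3a (−0.06 ± 0.09) were nearer to 0.

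The mean for Gpnmb was taken over 4 values. In MNU nonmutated cancers the value with radiation was higher by 1.20 ± 0.36 (interval 0.46 to 1.93, unadjusted p = 0.00231, limma adjusted p = 0.424). In MNU mutated cancers it was −0.28 ± 0.32, against spontaneous cancers 0.35 ± 0.39, and with PhIP −0.53 ± 0.39, each with an interval that included 0. The value with PhIP was −0.30 without PhIP nonmutated 2. The test that the 4 are equal gave F = 4.55 (unadjusted p = 0.00981, limma adjusted p = 0.672) and did not pass. In MNU nonmutated cancers Cd163 (1.25 ± 0.49), C1qb (1.02 ± 0.40), C1qa (0.77 ± 0.34), Cd68 (0.70 ± 0.33) and Csf1r (0.58 ± 0.27) also had an unadjusted p under 0.05, where 3.36% of all genes were higher by that measure. None of these passed after adjustment. This comparison shares the radiation plus MNU nonmutated arrays with the H-ras comparison, so neither is independent support for the other.

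Among the 6 groups of nonmutated cancers, 0 of the 9 genes passed the F test, where 0.00849% of all genes (1 gene, Vsnl1) did with limma. At an unadjusted p under 0.05 there were 1042 genes. Gpnmb had the smallest p of the 9 (F = 4.65, unadjusted p = 0.00305, limma adjusted p = 0.319), before Lyz2 (0.024), Csf1r (0.04) and C1qa (0.0444, unadjusted). With array weights, Gpnmb (adjusted p = 0.0266) and Lyz2 (0.0383) passed, but so did 1308 genes.

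Ordered by group mean, Gpnmb ran from normal tissue (12.86 ± 0.53, SD, n = 3) and radiation plus MNU nonmutated cancers (12.55 ± 0.36, n = 4) to radiation plus MNU mutated cancers (10.86 ± 0.73, n = 5). Between them came radiation (11.55 ± 0.35, n = 4), PhIP nonmutated (11.47 ± 0.39, n = 3), MNU nonmutated (11.35 ± 0.70, n = 4), spontaneous (11.20 ± 0.53, n = 3), MNU mutated (11.15 ± 0.49, n = 5) and radiation plus PhIP cancers (10.94 ± 0.44, n = 4). The single PhIP mutated cancer had 11.66. Neighbours in this order differed by less than their SDs, except for the step from radiation plus MNU nonmutated cancers to radiation. The 4 radiation plus MNU nonmutated cancers all lay above the other 29 cancers, whose highest value was 12.00 (radiation 1). Of all 11773 genes 2 did this (0.017%), Gpnmb and Spp1, which encodes the secreted phosphoprotein osteopontin and is itself a product of macrophages and osteoclasts. The margin for Spp1 was narrow, with 11.35 as the lowest of the 4 and 11.31 as the highest of the others. This separation was noticed after the values were seen.

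The 9 genes differed in how much they varied between cancers. Cd163 varied most (SD 0.80, an 11.8-fold range of the added-constant intensity), then Gpnmb (0.68, 8.82-fold), C1qb (0.66), C1qa (0.59), Cd68 (0.52), Csf1r (0.45), Tyrobp (0.42), Lyz2 (0.40) and Fcgr3a (0.30). The median gene had an SD of 0.26 and a 2.19-fold range. Group membership held 54.7% of the variance of Gpnmb, 33.6% to 41.4% of that of the other 8 and 27.6% of that of the median gene. For those 8, more of the variance lay within groups than between them. In PhIP nonmutated 2, for example, Cd163 (5.87), Lyz2 (11.16), C1qa (10.03), C1qb (9.35) and Csf1r (9.07) were the lowest of all cancers, while Gpnmb (11.92) and Fcgr3a (9.40) were above their cancer medians.

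Most of the markers other than Gpnmb rose and fell together from cancer to cancer, Fcgr3a least so. To set group differences aside, correlations were computed on deviations from group means over the 33 cancers, for all 36 pairs of the 9 genes. Their p-values came from 100000 permutations, with Benjamini-Hochberg adjustment over the 36. The permutations did not allow for the group means that had been subtracted, so these p-values are too small. The single PhIP mutated cancer was its own group mean, so it carried no information in these correlations. Of the 28 pairs without Gpnmb, 25 passed, with a median Pearson r of 0.70. C1qa and C1qb, chains of the same protein, had r = 0.88 and Spearman rho = 0.88 (both permutation p = 1e-05, the smallest possible, adjusted p = 2.77e-05 for r and 2.4e-05 for rho), and r = 0.85 without the 2 cancers farthest from the median of the first gene. Csf1r with Tyrobp and C1qa with Tyrobp also reached r = 0.88 and rho = 0.88, each at the smallest p. Fcgr3a was the least connected of the 8, with r from −0.13 (with Cd163) to 0.60 (with Tyrobp). The pairs that did not pass were those of Fcgr3a with Cd163, C1qb (r = 0.25) and Lyz2 (r = 0.26).

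The pairs with Gpnmb had lower values than most others, inside the range of those with Fcgr3a. The 8 pairs of Gpnmb had a median r of 0.31 (0.19 to 0.47), and 3 passed, by p-values that are too small. The difference of the 8 from the other pairs was not itself tested. Gpnmb and Cd68 had r = 0.47 (permutation p = 0.0051, adjusted p = 0.00874) and rho = 0.52 (p = 0.0019, adjusted p = 0.00342). Leaving out the 2 cancers farthest from the median of Cd68 gave r = 0.46. The others that passed were those with C1qb (r = 0.46, rho = 0.45) and Cd163 (r = 0.40, rho = 0.37). Of the 3, that with Cd163 was nearest to the threshold (permutation adjusted p = 0.0262 for r), so its pass is uncertain. The lowest was that with Csf1r (r = 0.19, rho = 0.20, permutation p = 0.294 and 0.258). On the values themselves, with group differences left in, all 8 pairs passed with a median r of 0.45. It was 0.34 with 2 cancers left out of each pair, chosen by the gene other than Gpnmb. These genes share each array and its RNA, so part of any correlation can come from them, which was not tested.

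**Figure D4:**
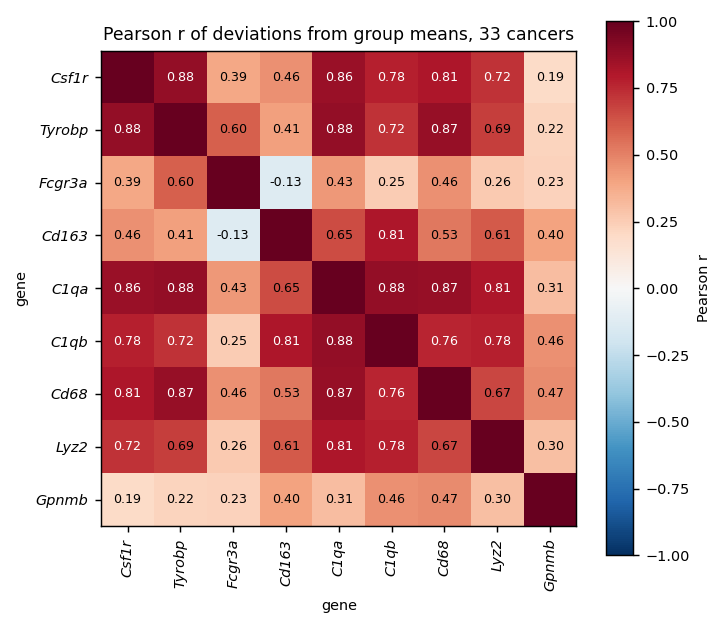
Pearson r between the 9 genes over 33 cancers, computed on deviations from group means, with genes on both axes and r as colour. The block of high values holds Csf1r, Tyrobp, C1qa, C1qb, Cd68 and Lyz2, while r ran from 0.19 to 0.47 for Gpnmb.

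The genes most like the 8 markers and those most like Gpnmb were ranked separately. By deviations from group means over the 33 cancers, the 5 genes most like the mean of the 8 were C1qc (r = 0.96), the third chain of C1q, the endosomal RNA sensor Tlr8 (0.92), the lectin Clec4a3 (0.91), Fcer1g (0.90), the adaptor shared by Fc receptors, and Mpeg1 (0.89), a pore-forming protein of macrophages. Gpnmb ranked 815th in that order (r = 0.39). The 5 most like Gpnmb were the insulin-responsive glucose transporter Slc2a4 (0.73), the nuclear pore gene Nup42 (0.71), Creg1 (0.70), a glycoprotein of the lysosome, Pgrmc1 (0.68), a haem-binding membrane protein, and Polr3c (0.66), a subunit of RNA polymerase III. Cd68 ranked 139th for likeness to Gpnmb and Csf1r 2405th. These are descriptions with no test.

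The gene lists can be set beside both in the same way, with no test of a difference. Over 14 other macrophage markers the median r with the mean of the 8 was 0.79, and with Gpnmb it was 0.28. Over 11 partners of complement C1 and Fc receptors the medians were 0.69 and 0.33, and over 21 lysosomal and lipid-handling genes 0.31 and 0.16. T and NK cell markers had medians of 0.45 and −0.01, and adipocyte markers 0.45 and 0.22. Other lists had close medians with both: 0.26 and 0.30 for 8 inflammatory genes, 0.36 and 0.39 for 9 mast cell markers, and 0.27 and 0.26 for 4 neutrophil markers. Fibroblast markers had 0.39 and −0.22, and osteoclast markers 0.39 and 0.06. For all genes the medians were −0.02 and −0.01. The macrophage and Fc receptor lists thus lay above all genes for Gpnmb too, but so did the mast cell, inflammatory, neutrophil and adipocyte lists. The mast cell list had the highest median with Gpnmb.

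Other genes of these pathways were counted in the same comparison of cancers with normal tissue, where 16.3% of all genes were lower. Of 14 further macrophage markers, 7 were lower and 0 higher, with a median of −0.65. They included the lysosomal membrane gene Laptm5 (−1.09 ± 0.29, limma adjusted p = 0.00462), the oxidase subunit Cybb (−0.82 ± 0.22, 0.00446), Fcer1g (−0.74 ± 0.18, 0.00215) and the folate receptor Folr2 (−0.63 ± 0.21, 0.0192). Another list joined the Csf1r ligands to genes of other colony-stimulating factors, their receptors and chemokines. Of its 8 measured genes 1 was lower, the Csf1r ligand Il34 (−0.64 ± 0.21, 0.0172). The other Csf1r ligand, Csf1, did not pass (−0.29 ± 0.12, 0.06). Of 11 partners of complement C1 and Fc receptors 5 were lower, among them the lipid receptor Trem2, which signals through Tyrobp (−1.08 ± 0.27, 0.00294), its kinase Syk (−0.66 ± 0.17, 0.00424) and the C1 protease C1s (−1.23 ± 0.33, 0.00466).

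Of 21 lysosomal and lipid-handling genes, 14 were lower and 0 higher, led by lysosomal acid lipase Lipa (−1.97 ± 0.25, limma adjusted p = 7.34e-07) and the lipoprotein lipase Lpl (−2.03 ± 0.28, 3.55e-06), with the cathepsins Ctsb (−0.80 ± 0.12) and Ctsl (−1.01 ± 0.17). Several of these, such as Lpl, are abundant in fat cells too. Of 9 genes of alternative activation and haem uptake, the iron exporter Slc40a1 was lower (−1.04 ± 0.24, 0.00159) and haptoglobin, Hp, was higher (0.51 ± 0.19, 0.0422). Of 8 inflammatory genes, the chemokines Cxcl10 (−1.21 ± 0.20, 2.45e-05) and Ccl3 (−0.93 ± 0.18, 0.000158) were lower.

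Markers of other cells are given beside all genes, of which 16.3% were lower and 18% higher. Lower were 8 of 9 adipocyte, 7 of 7 endothelial, 4 of 5 dendritic cell, 2 of 3 B and plasma cell, 1 of 4 erythroid and platelet and 2 of 10 fibroblast markers, with 5 of the 10 lower at an unadjusted p under 0.05. None of 12 T and NK cell, 9 mast cell and 4 neutrophil markers passed in either direction. At an unadjusted p under 0.05, 4 of the T and NK cell markers were lower. The mast cell markers had a median difference of 0.74, with 1 of 9 below 0. Of the 10 luminal markers 6 were higher and 1 lower. Gpnmb is also known from pigment cells and osteoclasts. Of 6 melanocyte markers 1 was measured, Mlana, which was lower (−1.48 ± 0.50, limma adjusted p = 0.0227). Its level ran from 5.99 to 9.55 over the 3 normal tissues and from 5.56 to 8.22 over the cancers, so these ranges overlapped. Of 4 measured osteoclast markers 1 was lower, Calcr (−0.34 ± 0.11, 0.0171).

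In the H-ras comparison 0 genes of these lists passed. The median was −0.47 over the 14 other macrophage markers (13 below 0) and −0.40 over the 11 complement and Fc receptor partners (10 below 0). It was −0.22 over the 21 lysosomal genes (19 below 0). Among lists of other cells it was −0.42 (fibroblast), −0.35 (neutrophil), −0.16 (T and NK cell), 0.00 (adipocyte), 0.10 (mast cell) and 0.21 (luminal epithelium). The values nearest to passing were those of Mitf, which encodes a MiT/TFE factor (−0.50 ± 0.15, unadjusted p = 0.00258, limma adjusted p = 0.4), and the cathepsin Ctsz (−0.57 ± 0.17, 0.00262, 0.4). For Mpeg1 the value was −0.64 ± 0.20 and for Trem2 −0.61 ± 0.21. After radiation plus MNU, where the difference of Gpnmb was greatest, Mitf had −0.83 ± 0.22 (unadjusted p = 0.000592, limma adjusted p = 0.774). Spp1 had −1.90 ± 0.63 (0.00543, adjusted 1). Other genes of the MiT/TFE family were measured too, but their values are not given here, and a link to Gpnmb was not tested. In that background the fibroblast list had a median of −0.83 with 10 of 10 below 0, and the neutrophil list −0.86 with 3 of 4. The other macrophage markers had −0.67.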

How the data were processed

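Linear intensity values were deposited, 1 for every probe set on every array. How the probes were summarised and scaled was not given in the sources used here. Each array's mean, trimmed of 2% of its values at either end, was 500.1, so arrays had been scaled as a whole. Per the labels' protocols, 8 µg of RNA gave biotin-labelled cRNA. Of 31099 probe sets, 20832 carried 1 symbol, 436 several and 9831 none, in an annotation table that may be old. Values were taken as log2(intensity + 42.8), the 20th percentile of all values. Probe sets over 125.8, the 40th percentile, on at least 3 arrays were kept, 1 per symbol by highest mean (11773 genes).

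A linear model with a mean for each of the 10 groups was fitted by limma 3.58.1 (R 4.3.3, lmFit, contrasts.fit, eBayes, 26 residual degrees of freedom), with Benjamini-Hochberg adjustment over all genes. The fit was tested on simulated data. No array was left out. The single PhIP mutated array entered the mean of the cancers and the correlations, and no other test. It carried no information in the correlations of deviations from group means. Correlations and permutations used Python 3.11.15, numpy 2.4.6 and scipy 1.17.1. The number of arrays limits the precision.

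The 9 genes, the gene lists and the tests were chosen with earlier results of these data known. By the rule, all 9 genes are named, with up to 4 genes of each list by smallest adjusted p and the 5 genes most like Gpnmb and most like the mean of the others. Spp1 as a gene apart from its list and Vsnl1 were named after their values were seen. Alternatives covered the added constant, the filter, normalization, the choice of probe set, array weights, RNA quality, a replicate block, and leaving out each array.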

Additional observations from a re-analysis of the deposited data

Results flagged for a closer look

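For each of the 9 genes, groups of 4 or 5 cancers were searched for an array far from the others, 54 combinations of gene and group in all. In 2 of them the gap between the extreme array and its neighbour passed Dixon's limit, and chance alone passes it in about 1 of 20 groups. Tyrobp was 9.72 in MNU nonmutated 2, the highest of its group of 4, where the others had 9.07 to 9.15. The same cancer was also the highest of its group for Cd68 (10.35), C1qa (11.96), C1qb (11.14) and Cd163 (8.65), but the lowest for Fcgr3a (9.11). Fcgr3a was 9.88 in radiation plus MNU nonmutated 4, where the other 3 arrays had 9.29 to 9.35. That cancer also had the highest Cd68 (11.38), C1qa (12.49), Tyrobp (10.34), Lyz2 (13.02) and Gpnmb (13.05) of the 33.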

How the results depend on the processing

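Of 1447 values of single genes under alternative settings, 1394 kept their direction and side of the threshold, 31 lost the threshold and 22 changed sign. The sign changes were 21 for C1qa between cancers and normal tissue, where the difference is near 0 (0.00 with the 40th percentile added, 0.05 with quantile normalization, −0.11 to 0.06 with 1 array left out), and 1 for Gpnmb after MNU alone (0.08 with array weights). With 1 array left out, the number of the 9 genes that differed from normal tissue was 2 to 6, of all genes 2680 (without normal tissue 2) to 4262, and of the values by group 13 to 30. Genes that passed for H-ras were then 0 to 4, for radiation 0 to 3 and in the F test 0 to 8. The F test, with 1 gene, gave 5 with the 40th percentile added, 5 with a filter at the 60th, 2 with median centring, 1308 with array weights (and 2 of the 9) and 0 when fitted to its own groups only. Median centring gave 2 genes for H-ras, and array weights gave 2 for H-ras and 52 for radiation. The cause was not tested. In the other settings 5 to 6 of the 9 differed from normal tissue. Of the 36 correlations 34 passed on values, 28 on deviations from group means (by p-values that are too small), and 27 with 2 cancers left out of each pair.

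Groups share replicate numbers, and the labels give no batch. Deviations of arrays with the same number had a median correlation of 0.00 (−0.50 to 0.39), and with different numbers 0.00 (−0.39 to 0.51). Medians over all genes cannot show whether some arrays or genes shared a batch. With the replicate number as a block, 6 of the 9 differed from normal tissue, and 0 genes passed for H-ras, 1 for radiation and 2 in the F test.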

Other observations

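The single H-ras mutated cancer after PhIP entered no fitted comparison between cancers. Its levels, as log2(intensity + 42.8), were 10.38 for Csf1r, 9.75 for Tyrobp, 9.15 for Fcgr3a, 7.69 for Cd163, 11.30 for C1qa, 10.37 for C1qb, 10.24 for Cd68, 12.61 for Lyz2 and 11.66 for Gpnmb. Its mean over 12 T and NK cell markers was 8.24, where the other cancers ran from 6.85 to 8.31.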
